A study of Mus musculus with 2 samples.

Results

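Glucose metabolism genes were followed, 37 in number, in RNA of whole mouse embryos. All 13 measured forms used by nearly all cells were above background, beside 65.5% of all genes. So were 6 of 8 muscle, 4 of 6 liver and 3 of 3 brain forms, the liver share (66.7%) being close to that of all genes. The brain forms fell to 1 of 3 when a majority of a gene's probe sets had to pass, beside 48.2% of all genes. Of 5 genes of glucose synthesis, 3 were not above background, a number too small to set against the share of all genes. Among them G6pc and Fbp2 rest on 1 probe set each. The genes were taken by symbol, as every probe set of the array that the platform's annotation assigns to 1 of the 37 names and to no other gene. Of the 37, 35 were measured, by 70 probe sets, out of 18194 genes on the array. Gpi1 and Eno1 were not analysed here. Total RNA came from wild-type whole embryos at E14.5, prepared with RNAzol, and was hybridised to 2 Affymetrix mouse expression arrays, called array 1 and array 2 here. There is 1 group with no genetic change or treatment, so nothing was compared between conditions. The study worked with E14.5 embryos of the NMRI or the C57/BL6 strain, and which of them was on the arrays is not given in the sources used here. Separate embryos or separate RNA for the duplicates are not stated, so their spread may be that of the method alone.

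Cells break glucose down to pyruvate by glycolysis, and either pass pyruvate to the mitochondria or reduce it to lactate. Mammals carry several genes for most of these steps. Some forms work in nearly every cell, and others are used by muscle, liver, brain or sperm. Gluconeogenesis runs the path backwards through a few enzymes of its own, chiefly in liver and kidney, and in rodents its rate in liver rises around birth. Each gene was assigned to a class by its known main site (widely expressed, muscle, liver, brain or other).

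Both arrays had been scaled by the authors to a mean signal of 100 after trimming. A signal was called above background when it passed a bound for its array, the 95th percentile of 80 probe sets of odorant, vomeronasal and bitter taste receptor genes. Its value came to 28.0 for array 1 and 33.9 for array 2. A gene passed when at least 1 of its probe sets lay above the bound on each array. Signals of different probe sets depend on their oligonucleotides, so no gene's signal was ranked against another's. Markers of several embryonic tissues were detected. All measured markers of hepatocytes (4), skeletal muscle (5), neurons (5), red cells (4) and white cells (5) passed, and none of 5 late spermatid markers did. All 6 intestine and kidney markers were below the bound too, among them Cdx2 at 27.2 and 23.2 and Vil1 at 21.5 and 26.2, although a whole embryo holds both organs. When a majority of probe sets had to pass, 2 of the 5 neuron markers did, beside 48.2% of all genes. With the bound at the 90th percentile 1 late spermatid marker passed. In RNA of a whole embryo, fewer cells of a type and less transcript per cell cannot be told apart.

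Of the 35 measured genes, 30 (85.7%) were above background on both arrays, beside 65.5% of all genes. Genes with more probe sets have more chances to pass, and the array-wide share rose from 48.5% with 1 probe set to 76.1% with 2, 87.3% with 3 and 93.6% with 4 or more. Among the glucose genes the same counts were 13 of 17, 6 of 6, 7 of 8 and 4 of 4. By probe sets, 51 of 70 (72.9%) passed on both arrays, beside 55.6% of all probe sets with 1 symbol. The 5 genes that did not pass were Slc2a5, Pdk4, Fbp2, Pck1 and G6pc. Those 5 include no gene of the widely expressed or the brain class.

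**Figure D1:**
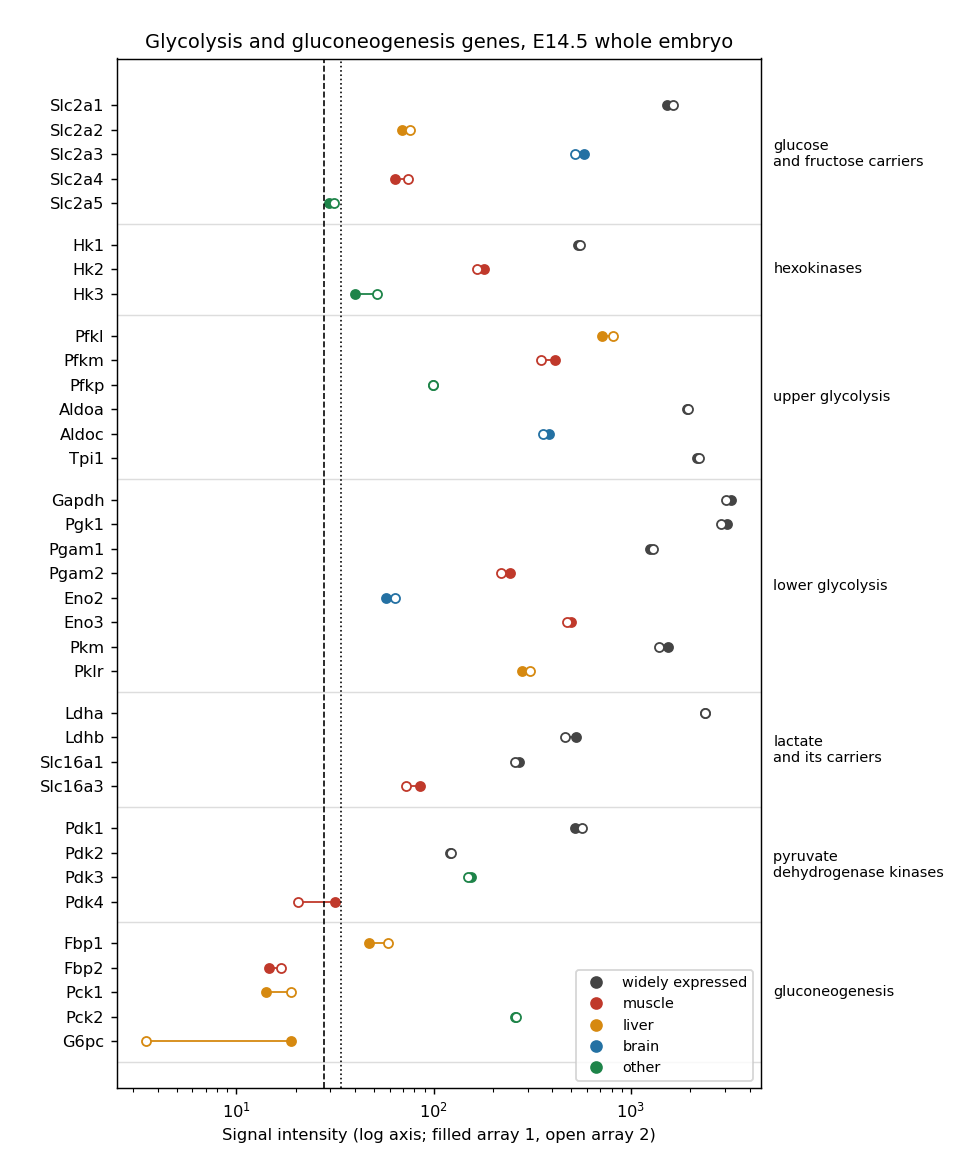
Signal of the 35 measured genes on array 1 (filled) and array 2 (open) on a log axis, ordered by step of the pathway and coloured by isoform class, each gene shown by its probe set with the highest mean signal. The dashed line is the bound of array 1 (28.0) and the dotted line that of array 2 (33.9). Genes of the glycolytic steps lie to the right of both lines, and Fbp2, Pck1 and G6pc lie to the left.

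Promoters were examined for the core of the hypoxia response element, through which hypoxia-inducible factors drive many glycolytic genes. The letters searched were ACGTG and GCGTG on both strands, in a window from 250 bases before to 50 after the first listed start of each gene, taken from RefSeq (GRCm38.p6). The 2 cores differ in their first letter and cannot match at the same place, while CACGTG is read as ACGTG on both strands. A promoter was held for 35 of the 37 genes, not for Slc2a3 and Slc2a4. ACGTG occurred in 14 of these 35 (40.0%) and in 13 of the 28 that were above background (46.4%), beside 19.7% of the 27025 genes of the promoter table and 25.7% of the 9624 genes above background with a promoter. GCGTG occurred in 13 of the 28 (46.4%), beside 51.3% of the 9624. By class ACGTG was found in 7 of 15 widely expressed genes, 4 of 7 muscle forms, 1 of 2 brain forms and 0 of 6 liver forms, numbers too small to set against the 19.7%. Either core was found in 19 of the 28 (67.9%), beside 62.9% of the 9624. Of the 5 genes not above background, Fbp2 alone held ACGTG and Pdk4 alone held GCGTG, so 2 (40.0%) held either core. Ldha had the most matches, 5 of ACGTG and 2 of GCGTG, followed among matches of ACGTG by Slc16a1 and Pfkm with 3 each. A match is a description of the letters, not a bound site, and CpG content, which varies between promoters, was not matched.

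As examples, the 250 bases before the start are given for a carrier, a glycolytic enzyme and a muscle-class hexokinase that hold the core and for the gluconeogenic genes Pck1 and G6pc, which do not. They were chosen after the matches were seen and do not stand for their pathways, since Fbp2 of gluconeogenesis holds ACGTG 2 times in its window and Aldoa, Tpi1, Pkm and Hk1 of glycolysis hold neither core. The windows are chr4:119108495-119108744 on the plus strand for Slc2a1, chrX:106186850-106187099 on the plus strand for Pgk1, chr6:82774455-82774704 on the minus strand for Hk2, chr2:173152823-173153072 on the plus strand for Pck1 and chr11:101367466-101367715 on the plus strand for G6pc. Capitals mark ACGTG or GCGTG, or on the other strand CACGT or CACGC.
Slc2a1: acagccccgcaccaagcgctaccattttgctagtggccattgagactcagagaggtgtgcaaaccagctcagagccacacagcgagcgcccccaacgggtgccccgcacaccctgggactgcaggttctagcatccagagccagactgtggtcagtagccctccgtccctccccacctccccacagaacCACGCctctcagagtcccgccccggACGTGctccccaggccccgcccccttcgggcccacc
Pgk1: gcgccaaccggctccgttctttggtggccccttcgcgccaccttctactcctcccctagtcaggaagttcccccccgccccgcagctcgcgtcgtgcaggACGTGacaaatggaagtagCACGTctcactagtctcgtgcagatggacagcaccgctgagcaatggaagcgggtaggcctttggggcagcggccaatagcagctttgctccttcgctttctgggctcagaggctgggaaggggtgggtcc
Hk2: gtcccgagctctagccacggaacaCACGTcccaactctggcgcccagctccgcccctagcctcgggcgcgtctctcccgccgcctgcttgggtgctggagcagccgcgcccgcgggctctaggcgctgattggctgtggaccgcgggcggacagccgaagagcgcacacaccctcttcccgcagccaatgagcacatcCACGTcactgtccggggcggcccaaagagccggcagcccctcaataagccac
Pck1: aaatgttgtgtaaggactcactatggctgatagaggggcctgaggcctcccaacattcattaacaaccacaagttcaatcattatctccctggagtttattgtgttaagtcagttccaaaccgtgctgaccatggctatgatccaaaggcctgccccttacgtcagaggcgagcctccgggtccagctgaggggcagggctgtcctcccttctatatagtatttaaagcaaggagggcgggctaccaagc
G6pc: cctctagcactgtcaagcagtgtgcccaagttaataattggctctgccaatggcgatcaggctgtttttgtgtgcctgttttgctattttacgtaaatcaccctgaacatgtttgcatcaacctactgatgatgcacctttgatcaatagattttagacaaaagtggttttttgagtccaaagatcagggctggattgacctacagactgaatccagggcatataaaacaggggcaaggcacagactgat
Pgk1 and Hk2 hold ACGTG 2 times each in these bases, and Slc2a1 holds ACGTG and GCGTG once each. The windows of Pck1 and G6pc hold neither.

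The glucose carriers are membrane proteins that let sugars pass down their gradient. Slc2a1 encodes GLUT1, the basal carrier of most fetal cells and red cells, and had signals of 1517.5 on array 1 and 1628 on array 2. All 3 of its probe sets passed, and the highest reached 54.3 times the bound on array 1 and 48.0 times on array 2. Slc2a3, the high-affinity carrier of neurons, had 581.7 and 522.5 and Slc2a2, the carrier of hepatocytes and beta cells, 69.3 and 76.2. Slc2a4, the insulin-responsive carrier of muscle and fat, had 63.8 and 74.0 in the higher of its 2 probe sets. The other, of the same sequence record, was above the bound on array 1 alone, at 36.7 and 29.4. Slc2a5, the fructose carrier of intestine and kidney, straddled the bound with 29.5 and 31.2, above it on array 1 and below it on array 2. None of the 6 intestine and kidney transport markers passed (summed signal 109.2 and 120), and their part in this result was not tested.

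Hexokinases trap glucose in the cell as its phosphate, and all 3 passed, beside 65.5% of all genes, too few to set against that share. Hk1, the widely expressed form, had signals of 541.2 and 549.4. Hk2, the insulin-responsive form of muscle and fat that growing cells also use, had 180.3 and 165.6. Hk3, a hexokinase of white blood cells, passed close to the bound with 39.9 and 51.6, and its second probe set gave 14.8 and 52.7. All 5 white cell markers passed (summed signal 2416.2 and 2426.1), among them Ptprc at 53.7 and 60.7 and Csf1r at 1047.7 and 1043.5.

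All 6 measured genes of upper glycolysis, which prepares and splits the hexose, were above background, beside 65.5% of all genes. All but Pfkm have 2 or more probe sets, and 76.1% of all genes with 2 passed. Phosphofructokinase, the main control point of the path, is built from 3 kinds of subunit, and each was detected. The liver subunit gene Pfkl had 716.1 and 813.3, and the muscle subunit gene Pfkm had 414.8 and 348.9. The platelet subunit gene Pfkp had 98.9 and 99.6 in 1 of its 3 probe sets, while the others stayed below the bound, between 4.0 and 24.9. Aldoa, the aldolase of muscle and of most fetal cells, passed in all 5 probe sets, with 828.5 as the lowest signal and 1947.5 as the highest. Aldoc, the brain aldolase, had 385 and 358.5. Tpi1, triosephosphate isomerase, had 2167.9 and 2204.2, and the lowest signal of its 3 probe sets was 1861.3.

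All 8 measured genes of lower glycolysis, which harvests the energy of the trioses, were above background too, beside 65.5% of all genes. Gapdh, the dehydrogenase often used as a reference gene, had 3225.6 and 3036.1 in its 5' control probe set, 3028.2 and 3002.5 in the middle one and 2952.8 and 2917.9 in the 3' one. Manufacturers place such probe sets along the transcript as a check of RNA integrity. Pgk1, the X-linked somatic phosphoglycerate kinase, had 3070.9 and 2864.6, and Pkm, the pyruvate kinase of most tissues outside liver and red cells, had 1539.8 and 1396.2. Its 1 probe set cannot tell the M1 from the M2 splice form.

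The mutases and enolases come as tissue pairs and triplets. Pgam1, the brain-type and widely expressed mutase, had 1250.9 and 1299.6, and Pgam2, the muscle mutase, had 242.6 and 220.6. Eno3, the muscle enolase, had 494.4 and 473.3. Eno2, the neuron-specific enolase, passed with 57.7 and 64.1, which is 2.06 and 1.89 times the bound. Pklr, the pyruvate kinase of liver and red cells, had 279.2 and 309.5, with 125 and 131 in another probe set. Its remaining probe set gave 63.2 and 21.3 and was below the bound on array 2.

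The 4 listed genes of lactate handling passed, beside 65.5% of all genes. Ldha, the muscle-type lactate dehydrogenase subunit, had 2375.2 and 2385.8 in its 1 probe set. Ldhb, the heart-type subunit, passed in all 4 probe sets, whose signals ran from 331 to 529.8 on array 1 and from 344.5 to 460.9 on array 2. Slc16a1, the widely expressed monocarboxylate carrier MCT1, had 272.6 and 258.7. Slc16a3, the lactate exporter MCT4 of fast glycolytic muscle, had 85.2 and 72.2. The pyruvate dehydrogenase kinases, which hold pyruvate back from the mitochondria, passed in 3 of 4 cases (75.0%), too few to set apart from that share. Pdk1, the kinase induced by hypoxia-inducible factor, had 520.8 and 568.3, and the lowest of its 4 probe sets 27.2 and 27.1. Pdk3 had 154.6 and 149.5, and Pdk2 had 121.7 and 122. Pdk4, the kinase induced by fasting in muscle and heart, had 31.7 on array 1 and 20.5 on array 2 and passed on array 1 alone.

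Of the 5 genes of gluconeogenesis, 2 (40.0%) were above background, beside 65.5% of all genes, a number too small to set against that share. The pair that passed were Pck2, the mitochondrial phosphoenolpyruvate carboxykinase, at 259.3 and 260.4, and Fbp1, the fructose bisphosphatase of liver and kidney, at 47.2 and 58.7. The other probe set of Pck2 gave 23.2 and 36.9 and was below the bound on array 1. Pck2 did not pass when a majority of a gene's probe sets had to. Pck1, the cytosolic carboxykinase of liver and kidney, was below the bound in all 3 probe sets, which gave 14.2 and 18.9, 12.5 and 6.5, and 1.6 and 2.2. G6pc, the catalytic subunit of glucose-6-phosphatase, had 19.0 and 3.5, and Fbp2, the bisphosphatase of muscle, had 14.7 and 16.8. The hepatocyte markers Alb, at 2845.9 and 2404.5, and Afp, at 3594.1 and 3529.1, were detected in the same RNA. Transcripts under the bound may still have been present, and G6pc and Fbp2 rest on 1 probe set each.

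By class, all 13 measured widely expressed genes and all 3 brain forms passed, as did 6 of 8 muscle forms, 4 of 6 liver forms and 4 of 5 others. When a majority of a gene's probe sets had to pass, the brain forms went from 3 to 1 and the others from 4 to 1. The share of all genes was 48.2% under that rule. Slc2a3 was also not above background without _s_at and _x_at probe sets. The liver forms, at 66.7%, were close to the 65.5% of all genes. Among the genes close to the bound, Hk3, Eno2 and Fbp1, 10% of the 30 genes that passed, did not reach 2 times the bound on both arrays, beside 21.0% of all genes that passed. The liver genes that did not pass, Pck1 and G6pc, belong to gluconeogenesis, as does Fbp1, which did pass beside Slc2a2, Pfkl and Pklr. The muscle genes that did not pass, Pdk4 and Fbp2, are likewise outside glycolysis itself.

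**Figure D2:**
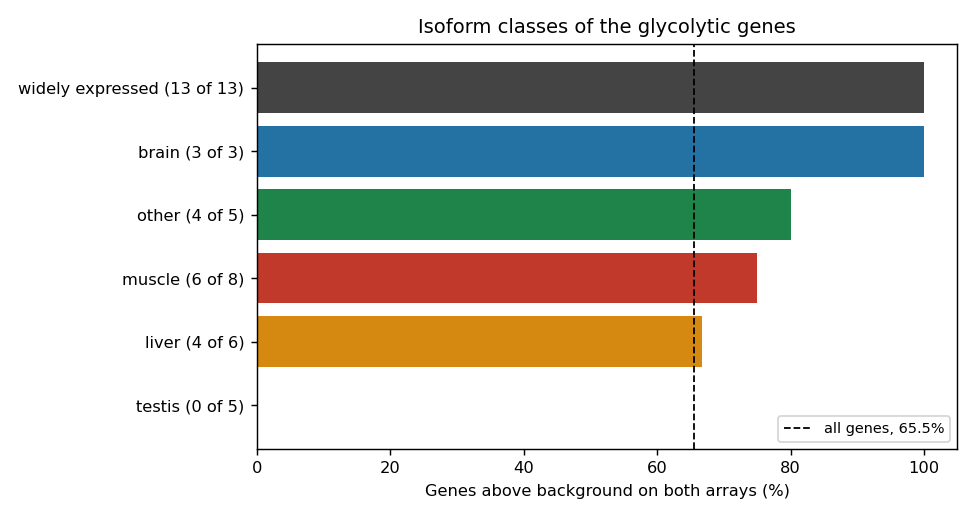
Share of the measured genes of each isoform class that were above background on both arrays, in percent from 0, with the numbers of genes in parentheses. The dashed line marks the 65.5% of all genes. The widely expressed and brain forms reach 100%, the liver forms 66.7%, and the sperm forms, named testis, stay at 0%. When a majority of probe sets had to pass, 1 of 3 brain forms did, beside 48.2% of all genes.

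Sperm forms of enzymes of glucose and pyruvate use were looked at too. Gapdhs, Pgk2, Ldhc, Eno4 and Pdha2, which serve sperm, were all below the bound, and their signals ran from 0.3 to 25.5. That is 0 of 5, beside 65.5% of all genes, a number too small to set against that share. Pgk2, the sperm phosphoglycerate kinase, had 0.3 and 1.7, and Gapdhs, the sperm form of Gapdh, had 20.7 and 22.8. The late spermatid markers Prm1, Prm2, Tnp1, Tnp2 and Odf1 were below the bound as well (summed signal 57.4 and 73.6). The part of late spermatids in this result was not tested.

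Other genes of glucose handling were set beside these. Over all pathway lists, the 5 sperm forms and 11 transcription factors included, 57 of 75 measured genes (76.0%) passed, beside 65.5% of all genes. When a majority of probe sets had to pass 44 of them did, beside 48.2% of all genes under that rule. Of 9 further hexose carriers and hexokinases 6 passed (66.7%, close to the share of all genes, and 3 under the majority rule), and Slc2a6, Slc2a9 and the glucokinase inhibitor gene Gckr did not. Of 6 further liver genes 5 passed, including Pcx, pyruvate carboxylase, which starts gluconeogenesis, at 265.9 and 273.4, and Slc37a4, the glucose-6-phosphate transporter that works with G6pc, at 169 and 138.6. The exception was Tat, a tyrosine aminotransferase of the liver, at 4.8 and 7.8. The phosphatase gene G6pc3, which is not confined to liver, had 90.2 and 116.3, and the islet form G6pc2 had 4.0 and 5.1. Of the 4 measured regulators of phosphofructokinase, Pfkfb4 and Tigar passed and Pfkfb2 did not. Pfkfb3 was above the bound on array 1 alone, at 28.7 and 32.7. All 8 measured genes of pyruvate entry into mitochondria passed, among them Mpc1, Pdha1 and Pdhb. Bpgm, the red cell enzyme that makes bisphosphoglycerate, had 595.3 and 644.8, and Bsg, the chaperone of the lactate carriers, had 1266 and 1227.2. The lactate carriers Slc16a7 and Slc16a8 and the D-lactate dehydrogenase gene Ldhd did not pass on both arrays.

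Probe sets of 1 gene often disagreed, and this bears on how firmly an isoform can be called. Of 18 genes with 2 or more probe sets, 7 passed in all of them. A further 10 passed with at least 1 probe set below the bound on 1 or both arrays. In Slc2a3 the pair of probe sets made from 1 record gave 581.7 and 522.5, and 270.9 and 207.5, whereas the other two gave 6.7 and 7.0, and 1.3 and 2.7. Both that passed are of the kinds (suffix _s_at and _x_at) that can bind related transcripts. In Aldoc the probe sets came from the same record and still gave 385 and 358.5 against 5.4 and 1.6. In Slc16a1 the second probe set gave 0.9 and 1.6. All 5 probe sets of Aldoa are of the _x_at kind. A further 4 probe sets carry the symbol of Gapdh (3) or Hk1 (1) together with other symbols and were left out. The one of Hk1 is also assigned to the ribosomal protein gene Rpl17 and gave 3184.4 and 3089.9.

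**Figure D3:**
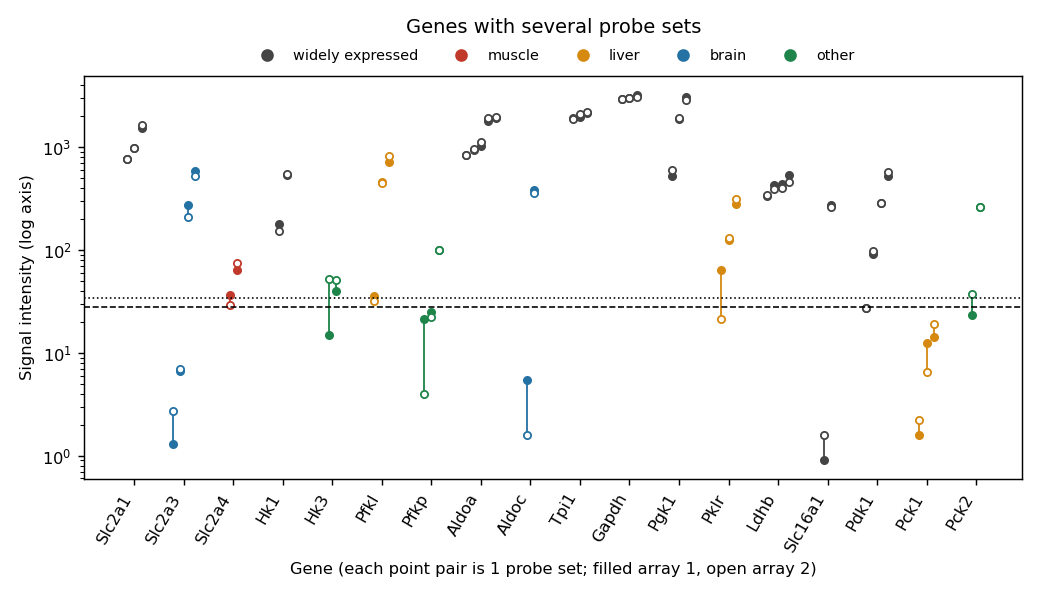
Signal of every probe set of the 18 genes with 2 or more probe sets, on a log axis, with array 1 filled and array 2 open and each pair of points 1 probe set. The dashed and dotted lines are the bounds of array 1 and array 2. The points of Slc2a3, Aldoc and Slc16a1 fall on both sides of the bounds, and those of Aldoa, Tpi1, Gapdh and Ldhb stay above them.

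The duplicate arrays gave like values for the probe sets of these genes above the bound on both arrays. Of the 70 probe sets, 7 passed on 1 array alone and 12 on neither, and these were not compared. Among the 7 were 1 of Pklr, at 63.2 and 21.3, and 1 of Hk3, at 14.8 and 52.7. No probe set of the glucose genes, of 51 above the bound on both arrays, differed by more than 1.5-fold between the arrays after centring, beside 3.74% of all 22125 such probe sets. The largest difference over these 51 was 1.31-fold, in the _x_at probe set of Slc2a3 that was lower on array 2. Among the probe sets with the highest mean signal it was that of Hk3, 1.28-fold higher on array 2. The SD of the log2 difference (array 2 minus array 1) was 0.15 over the 30 genes and 0.26 over all probe sets. These SDs are of unlike sets, since each of the 30 genes was shown by its probe set with the highest mean signal. The median over the 30 was 0.00. The liver forms were higher on array 2 in 4 of 4 cases (median 0.16) and the muscle forms lower in 5 of 6 (median -0.14), with Slc2a4 as the exception. These counts use the probe set with the highest mean signal. A second probe set of Pfkl lay at -0.03 and a second of Pklr at 0.06. With the mean of all probe sets above the bound the liver count was again 4 of 4 (median 0.11). Among the liver forms Fbp1 lay at 0.30, Pfkl at 0.17, Pklr at 0.14 and Slc2a2 at 0.13. Among the muscle forms Pfkm lay at -0.26, Slc16a3 at -0.25, Pgam2 at -0.15, Hk2 at -0.13, Eno3 at -0.07 and Slc2a4 at 0.20. Among these liver and muscle forms Fbp1 lay beyond 1 SD of all probe sets, Pfkm lay at it, and the rest were inside it, while Hk3 of the other forms lay beyond it at 0.36. The hepatocyte markers moved the other way from the liver forms, lower on array 2 in 4 of 4 cases (median -0.15, summed signal 12434.3 and 11381.7), and the red cell markers were higher in 3 of 4 (median 0.05, summed signal 6814.5 and 7008.6). The skeletal muscle markers were lower in 3 of 5 (median -0.06, summed signal 6508 and 6271.4). The part of these cell types in the differences was not tested.

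**Figure D4:**
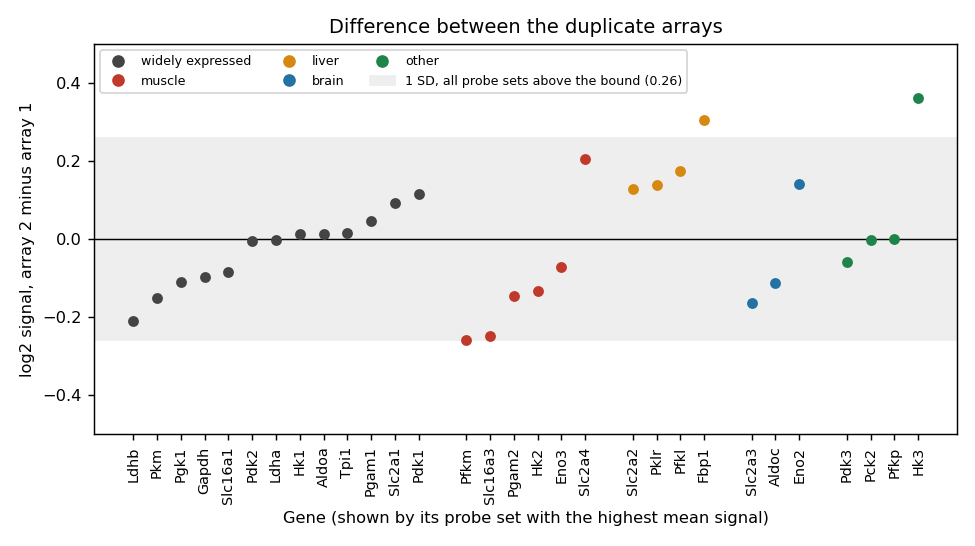
Difference of the log2 signal between the duplicate arrays (array 2 minus array 1, centred on all probe sets above the bound) for the 30 genes above background, grouped by isoform class. The grey band is 1 SD over all probe sets (0.26). Each gene is shown by its probe set with the highest mean signal. The liver forms lie above 0 and all muscle forms but Slc2a4 below it.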

How the data were processed

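Embryo RNA (E14.5, wild type, total) was measured on 2 Affymetrix mouse expression arrays. Scans were processed by the authors with GCOS 1.3 (submitters' processing notes). Each deposited value is the linear signal intensity of a probe set, with 2% trimmed at each end and the mean of the rest set to 100. Detection calls were not used here, and the bound took their place. With so few arrays, precision is low.

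Probe sets with 1 symbol (34958 of 45101) were named by the platform's annotation, updated through gene identifiers (34754 found in RefSeq, GRCm38.p6). A gene was shown by its probe set with the highest mean signal. All listed members were named, and of the other lists the exceptions where these were 5 or fewer, otherwise the first 4. Other list genes in the text were chosen after their values were seen. The members, classes and lists were chosen with earlier results of these data known. With 1 group, no p-value was computed. Differences between arrays were log2 signals of probe sets above the bound on both arrays, centred on their median. Other bounds (90th and 99th percentile, array median) were tried, as were stricter rules for several probe sets, removal of _s_at and _x_at probe sets, each array alone, another class assignment, no centring, quantile normalization and no filter with a pseudocount of 16. Protein sequences were not used here, so the planned identity between isoforms was not computed. The calls were also run on simulated data, in which all probe sets of an expressed gene were raised and receptor probe sets were drawn like unexpressed genes. That setting cannot tell how the calls fare where probe sets of 1 gene disagree. Python 3.11.15, pandas 2.3.3, numpy 2.4.6, scipy 1.17.1 and matplotlib 3.10.9 were used.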

Additional observations from a re-analysis of the deposited data

How the results depend on the processing

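The count of glucose genes above background was 30. It was also 30 with the 99th percentile bound, the array median, the same probe set required on both arrays, array 2 alone, and probe sets with several symbols counted for each of them (an alternative chosen after seeing the data). It was 31 with the 90th percentile bound, which added Slc2a5, and 32 with array 1 alone, which added Slc2a5 and Pdk4. Without _s_at and _x_at probe sets it was 28, since Aldoa had none left and Slc2a3 fell below the bound. When a majority of a gene's probe sets had to pass it was 23 (65.7%, beside 48.2% of all genes under that rule), without Slc2a3, Slc2a4, Hk3, Pfkp, Aldoc, Slc16a1 and Pck2. Under that rule the brain forms fell to 1 of 3 and the forms of other tissues to 1 of 5. No other class count moved by over 1.5 times, but the further hexose carriers and hexokinases went from 6 to 3, the transcription factors from 10 to 5 and the neuron markers from 5 to 2 under it. Pck1, G6pc and Fbp2 were below the bound under each of these settings. With Pfkl and Pfkm counted as widely expressed, 15 of 15 widely expressed, 3 of 5 liver and 5 of 7 muscle genes passed. The median differences between arrays moved by less than their spread under all 6 alternatives, and the liver median stayed between 0.11 and 0.20 and the muscle median between -0.15 and -0.11.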

Other observations

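In 2 neighbouring pathways most measured genes were above background (87.5% for pentose phosphate and 93.8% for glycogen), beside 65.5% of all genes. In the pentose phosphate pathway, which draws on the same glucose phosphate to make NADPH and ribose, 7 of 8 measured genes were above background, with Tkt, transketolase, at 2797.9 on array 1 and 2884.2 on array 2 and Taldo1, transaldolase, at 1084.3 and 1125.4. The exception was Tktl1, a transketolase relative, at 18.3 and 24.8. Of 16 measured genes of glycogen synthesis and breakdown 15 passed, including the muscle, liver and brain forms of glycogen phosphorylase. Pygb, the brain form, had 485.5 and 538.5, Pygl, the liver form, 290.1 and 287.1, and Pygm, the muscle form, 54.2 and 57.2. Gys1 and Gys2, the muscle and liver glycogen synthases, had 79.9 and 97.7, and 58.9 and 54.0. The exception was Phkg1, the muscle catalytic subunit of phosphorylase kinase, at 5.0 and 3.7, while its liver and testis counterpart Phkg2 had 102.6 and 83.7.

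Transcription factors that act on glucose genes passed in 10 of 11 cases (90.9%), beside 65.5% of all genes and 93.6% of all genes with 4 or more probe sets. Several of these factors have 4 or more. Hif1a, the oxygen-sensitive factor of the hypoxia response, had 782.2 and 769.4 and its partner Arnt 107.8 and 111.1. Factors of hepatic gene expression were present as well, with Hnf4a at 211.2 and 200.6 and Cebpa at 166.5 and 134.1. Ppargc1a, a coactivator of gluconeogenic genes in fasting, passed narrowly at 33.8 and 35.5. Mlxipl, the glucose-responsive factor of the liver, was above the bound on array 1 alone, at 30.8 and 21.0. With a majority of a gene's probe sets required, the count was 5 of the 11 factors, beside 48.2% of all genes under that rule. It was 9 with the 99th percentile bound.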
